A study of Mus musculus with 6 samples.

Results

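Glucocorticoid signalling was examined in the brains of newborn mice through 9 genes: the corticosteroid receptors Nr3c1 and Nr3c2, the hormone-converting enzymes Hsd11b1 and Hsd11b2, and the glucocorticoid-induced targets Fkbp5, Tsc22d3, Sgk1, Zbtb16 and Ddit4. The genes were taken by symbol from the deposited table of read counts. All 9 were found among its 24391 gene symbols, and all 9 passed the filter on low counts that left 15925 genes for testing. The study sequenced RNA from 1 hemibrain each of 6 mouse pups at postnatal day 0. Of these, 3 carried the genotype Celf2 -/- (called null here) and 3 the genotype Celf2 +/- (called heterozygous). CELF2 is an RNA-binding protein that acts on splicing, stability and translation of its target RNAs. The controls had also lost 1 Celf2 allele, so no library represents the wild type. The labels name no strain, sex, litter, birth conditions or Cre driver, and each library is called by its pup number from the labels.

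Corticosterone, the main glucocorticoid of mice, crosses into the brain and binds 2 nuclear receptors. The mineralocorticoid receptor, encoded by Nr3c2, has the higher affinity, and the glucocorticoid receptor, encoded by Nr3c1, is engaged when the hormone rises. The enzyme encoded by Hsd11b2 inactivates the hormone before it reaches a receptor, and the one encoded by Hsd11b1 regenerates it from the inactive form. The hormone-bound glucocorticoid receptor leaves a complex with HSP90 chaperones, enters the nucleus and binds palindromic DNA elements beside or within its target genes. Birth itself is accompanied by a surge of stress hormones.

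The promoter sequences that could be set beside the target genes came from RefSeq on the mouse build GRCm38.p6, as windows from 250 bases before to 50 bases after each annotated start. This build differs from mm9, the mouse build of the submitters' processing notes. Of the 9 genes 6 were matched, with 13 windows in all, and Nr3c1, Hsd11b2 and Zbtb16 were not matched. The full palindromic element of the glucocorticoid receptor, AGAACA followed by any 3 bases and TGTTCT, reads the same on both strands. It was present in 3 of 32851 windows of the mouse genome (0.009%), and 1 of those 3 belonged to Sgk1. A looser form, GNACA followed by any 3 bases and TGTNC, which every full palindrome also satisfies, was present in 0.475% of all windows, and among the 13 windows it occurred at that same Sgk1 site alone. The hexamer AGAACA alone, searched on both strands and present 2 times in each full palindrome, was in 18.974% of all windows and in 4 of the 13, of which 3 belonged to Sgk1 and 1 to Tsc22d3. The Sgk1 window with the palindrome is shown because it holds the only full element among these genes, the Tsc22d3 window because it holds a lone hexamer, and the Fkbp5 window because it holds none of the 3 motifs. Capitals mark every match.
Sgk1, chr10:21993640-21993939, plus strand: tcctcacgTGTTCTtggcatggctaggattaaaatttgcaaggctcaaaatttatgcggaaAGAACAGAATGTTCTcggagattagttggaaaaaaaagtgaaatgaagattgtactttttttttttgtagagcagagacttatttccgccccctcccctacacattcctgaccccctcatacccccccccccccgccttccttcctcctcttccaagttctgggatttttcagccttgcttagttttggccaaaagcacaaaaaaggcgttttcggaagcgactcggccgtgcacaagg
Tsc22d3, chrX:140600473-140600772, minus strand: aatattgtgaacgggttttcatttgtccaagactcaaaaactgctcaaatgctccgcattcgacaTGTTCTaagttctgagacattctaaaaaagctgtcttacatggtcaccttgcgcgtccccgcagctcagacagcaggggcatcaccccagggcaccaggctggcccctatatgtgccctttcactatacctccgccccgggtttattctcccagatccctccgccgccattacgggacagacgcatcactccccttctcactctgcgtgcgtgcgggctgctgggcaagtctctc
Fkbp5, chr17:28486100-28486399, minus strand: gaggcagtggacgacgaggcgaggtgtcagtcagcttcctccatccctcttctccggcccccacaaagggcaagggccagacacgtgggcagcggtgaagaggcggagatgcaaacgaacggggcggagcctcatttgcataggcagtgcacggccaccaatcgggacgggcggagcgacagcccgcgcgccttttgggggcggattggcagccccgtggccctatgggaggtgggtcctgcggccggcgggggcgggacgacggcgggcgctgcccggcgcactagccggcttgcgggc
In the Sgk1 window the palindrome covers bases 62 to 76, counted from the 5′ end. It is 1 of 6 Sgk1 windows, each for a different annotated start, and gene counts do not show which start was used. The Fkbp5 window was 70.7% G and C, against 46.3% for the Sgk1 window. A match is a description of these letters and not evidence of receptor binding, and a window without one says nothing about more distant sites.

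Library totals ranged from 28831997 to 36531980 counts. In null pup 2, 11.8% of the counts fell on the ribosomal precursor Rn45s, against at most 1.27% in the others. Levels are therefore given as CPM, the counts of a gene out of 1000000 counts of its library, on library sizes scaled by the trimmed mean of M-values (TMM), a factor that sets the bulk of genes equal between libraries. The 13 neuronal markers examined were all detected well enough for testing, and Tubb3, a neuronal tubulin, stood between 1992 and 2533 CPM. Celf2 was at 459, 403 and 362 CPM in heterozygous pups 6, 7 and 11 and at 448, 390 and 331 CPM in null pups 2, 4 and 10, so its gene total did not separate the genotypes and every direction below rests on the labels. Hox genes, expressed from the hindbrain backwards, summed to 19.4, 135 and 10.3 CPM in the heterozygous libraries and to 3.66, 6.64 and 3.09 CPM in the null libraries. In bulk tissue, fewer cells of a type and less RNA per cell cannot be told apart.

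For none of the 9 genes was a difference between the genotypes detected. By edgeR's quasi-likelihood test 0 of the 9 passed an adjusted p of 0.05 in either direction, against 0.00628% of all genes tested, which is 1 gene, Proz, named here after its value was seen. At an unadjusted p of 0.05 the count was again 0 of 9, against 7.06% of all genes tested. DESeq2 called 0 of the 9 and had 0 at an unadjusted p of 0.05. It gave no adjusted p for Nr3c2, Hsd11b1 and Hsd11b2, so it could not have called them. The null and heterozygous libraries overlapped for all 9 genes. They did not overlap for 12.7% of all genes tested, 6.21% with the null libraries higher and 6.47% with them lower. At that share, 0 of 9 does not set these genes apart. Fold changes were positive for 5 genes and negative for 4 (50.3% of all genes tested were negative), with a median log2 fold change of 0.08, against -0.001 over all genes tested. That median was -0.02 without heterozygous pup 6, 0.03 without null pup 4 and 0.01 without null pup 10, so its sign rested on heterozygous pup 6. With library size alone it was -0.004, where the median of all genes was -0.086. The smallest fold change in the main test was -0.19 for Hsd11b2 and the largest 0.14 for Nr3c2. The 95% intervals of 7 genes lay within a 1.5-fold change either way, and those of Hsd11b1 and Hsd11b2 did not.

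**Figure D1:**
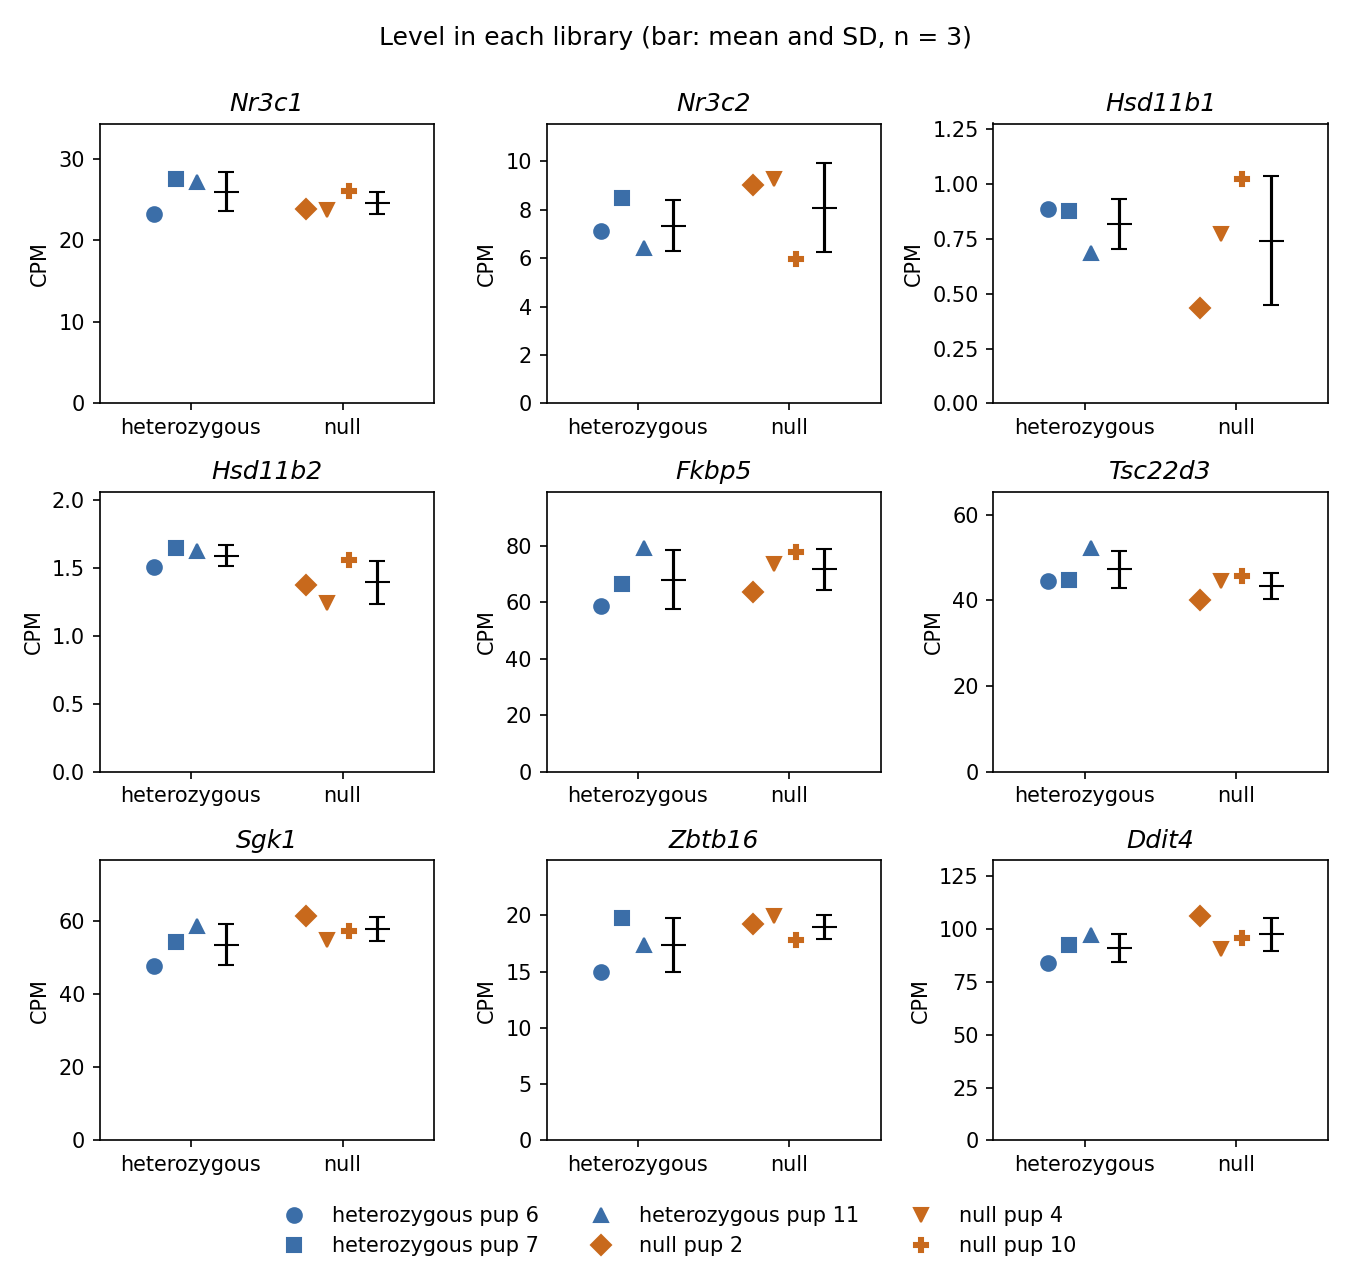
Level of each of the 9 genes in CPM (vertical axis, from 0) in the 3 heterozygous libraries (blue) and the 3 null libraries (orange), with 1 symbol per library and bars for mean and SD. The groups overlap in all 9 panels, and Hsd11b1 and Hsd11b2 lie near 1 CPM.

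Per kilobase of the deposited gene length, the 5 targets were the more abundant genes except Zbtb16. Ddit4 stood at 54.1 ± 3.99 CPM per kilobase in heterozygous and 57.9 ± 4.63 in null libraries (SD, n = 3 each). Tsc22d3 was at 17.8 ± 1.64 and 16.4 ± 1.12, and Fkbp5 at 17.5 ± 2.69 and 18.5 ± 1.86 CPM per kilobase, so these 2 did not differ beyond their spread. Sgk1 followed at 12.9 ± 1.34 and 13.9 ± 0.784 CPM per kilobase. Nr3c1 at 4.11 ± 0.372 and 3.88 ± 0.214 and Zbtb16 at 3.40 ± 0.470 and 3.71 ± 0.212 CPM per kilobase overlapped over the libraries. Nr3c2 came next at 1.80 ± 0.258 and 1.98 ± 0.450 CPM per kilobase. Lowest were the enzymes, Hsd11b2 at 0.862 ± 0.0413 and 0.755 ± 0.0868 and Hsd11b1 at 0.564 ± 0.0792 and 0.513 ± 0.204 CPM per kilobase, whose ranges also overlapped. Among all genes tested, the mean per-kilobase level of Ddit4 exceeded 91.7% of genes, that of Nr3c1 36.1% and that of Hsd11b1 10.5%.

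The glucocorticoid receptor gene Nr3c1 was at 23.3, 27.5 and 27.2 CPM in heterozygous pups 6, 7 and 11. In null pups 2, 4 and 10 it was at 23.9, 23.7 and 26.1 CPM. The lowest of the 6 libraries was a heterozygous one, and the groups overlapped over most of their range. With a log2 fold change of -0.08 (SE 0.11, edgeR adjusted p = 0.941), the null level was 94.5% of the heterozygous one (95% interval 79.8% to 112%). Without heterozygous pup 6 the fold change was -0.15, and without heterozygous pup 7 it was -0.04. Of the 9 genes, Nr3c1 varied least over the 6 libraries, by 1.18-fold between the lowest and the highest.

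Nr3c2, the mineralocorticoid receptor gene, varied more. It was at 7.13, 8.48 and 6.41 CPM in heterozygous pups 6, 7 and 11 and at 9.02, 9.24 and 5.95 CPM in null pups 2, 4 and 10. Null pups 2 and 4 were the highest of all libraries, while null pup 10 was the lowest, next to heterozygous pup 11. Between the genotypes the log2 fold change was 0.14 (SE 0.20, edgeR adjusted p = 0.944), or 110.1% of the heterozygous one, with bounds of 81.6% to 148.6%. Without null pup 10 it was 0.32 (adjusted p = 0.672), and without null pup 4 it was 0.03. A gene model on the opposite strand, Gm10649, overlaps an exon of Nr3c2 in the GENCODE M21 annotation, and since the strand setting of the counting is not given, reads of the 2 cannot be told apart.

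The balance of the receptors, Nr3c1 over Nr3c2 per kilobase, does not depend on how libraries are scaled. It was 2.11, 2.09 and 2.74 in heterozygous pups 6, 7 and 11 and 1.71, 1.65 and 2.83 in null pups 2, 4 and 10. Thus Nr3c1 was the more abundant receptor transcript in every library. The 2 highest ratios came from heterozygous pup 11 and null pup 10, 1 of each genotype. Group means were 2.31 ± 0.371 and 2.07 ± 0.666 (SD, n = 3 each), a difference smaller than either spread.

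The hormone-regenerating enzyme gene Hsd11b1 had few counts. There were 33, 26 and 24 in heterozygous pups 6, 7 and 11 and 11, 26 and 30 in null pups 2, 4 and 10. These correspond to 0.888, 0.875 and 0.684 CPM and to 0.433, 0.770 and 1.02 CPM. The lowest and the highest library were both null. Its log2 fold change was -0.12 (SE 0.35, edgeR adjusted p = 0.974), with an interval from 53.9% to 156.7% of the heterozygous level. The exact 95% Poisson interval of the 11 counts in null pup 2 ran from 0.216 to 0.776 CPM, which covers counting error only. Without that library, where Rn45s was high, the fold change was 0.13, and without null pup 10 it was -0.41.

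Hsd11b2, which encodes the inactivating enzyme, had 56, 49 and 57 counts in heterozygous pups 6, 7 and 11 and 35, 42 and 46 counts in null pups 2, 4 and 10. In CPM it was at 1.51, 1.65 and 1.62 in the heterozygous and at 1.38, 1.24 and 1.56 in the null libraries. Null pups 2 and 4 lay below every heterozygous library, and null pup 10 lay among them. The log2 fold change of -0.19 was the lowest of the 9 (SE 0.23, edgeR adjusted p = 0.926), and its interval reached from 61.4% to 125% of the heterozygous level. Without null pup 4 the value was -0.11. In the developing brain this enzyme is known from cerebellar granule precursors. A list of 12 tested genes of the cerebellar granule lineage had a mean log2(CPM + 0.5) of 4.45, 4.59 and 4.52 in the heterozygous and of 4.05, 4.28 and 4.63 in the null libraries, so null pups 2 and 4 were lowest here too. The summed CPM of the same list did not follow that order, at 540.3, 568.5 and 538.1 in the heterozygous and 606, 488.7 and 619.5 in the null libraries. The part of cerebellar tissue in the Hsd11b2 values was not tested.

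The ratio of Hsd11b2 to Hsd11b1 per kilobase was 1.33, 1.47 and 1.86 in heterozygous pups 6, 7 and 11 and 2.49, 1.26 and 1.20 in null pups 2, 4 and 10. More transcript of the inactivating than of the regenerating enzyme was thus counted per kilobase in every library. The value of null pup 2 rested on the 11 counts of Hsd11b1, and those of the other libraries on 24 to 33. Whether the order within a single library exceeds counting error was not tested.

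**Figure D2:**
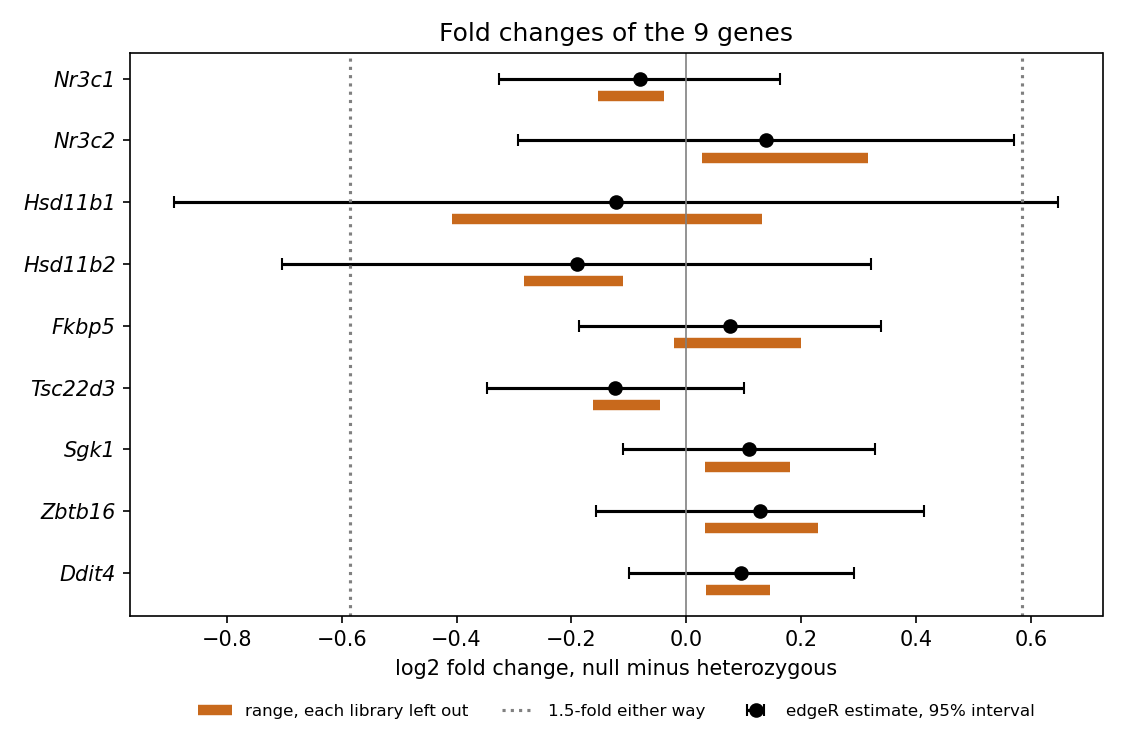
Log2 fold change of each gene, null minus heterozygous (horizontal axis), with the edgeR 95% interval in black and, in orange, the range when each library was left out in turn. All 9 intervals include 0, and the orange ranges of Fkbp5 and Hsd11b1 cross 0.

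Fkbp5 encodes a cochaperone that lowers the hormone affinity of the receptor and forms a feedback loop with it. Its levels were 58.6, 66.4 and 79.3 CPM in heterozygous pups 6, 7 and 11 and 63.9, 73.6 and 77.9 CPM in null pups 2, 4 and 10. The 2 highest libraries, heterozygous pup 11 and null pup 10, belonged to different genotypes. Fkbp5 had a log2 fold change of 0.08 (SE 0.12, edgeR adjusted p = 0.951), and the null level was 105.4% of the heterozygous one, with bounds of 87.9% to 126.4%. Its sign rested on heterozygous pup 6, without which it was -0.02. Leaving out each of the other libraries in turn gave positive values, from 0.01 without null pup 10 to 0.20 without heterozygous pup 11.

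Tsc22d3, which encodes the leucine zipper protein GILZ, a mediator of anti-inflammatory glucocorticoid effects, was at 44.6, 44.8 and 52.2 CPM in heterozygous pups 6, 7 and 11. It was at 40.0, 44.4 and 45.6 CPM in null pups 2, 4 and 10. Heterozygous pup 11 was the highest and null pup 2 the lowest, while the other 4 libraries lay between 44.4 and 45.6 CPM. For Tsc22d3 the log2 fold change was -0.12 (SE 0.10, edgeR adjusted p = 0.879, the smallest among the 9 genes), with an interval of 78.6% to 107.3% of the heterozygous level. It was -0.05 without heterozygous pup 11 and -0.07 without null pup 2. Tsc22d3 lies on the X chromosome. Ddx3y, on the Y chromosome, had 0 counts in heterozygous pup 7 and null pups 4 and 10, where Tsc22d3 stood at 44.8, 44.4 and 45.6 CPM, and 65.5 to 80.0 CPM in the other 3. With Ddx3y detection as a term the fold change was -0.13 (adjusted p = 0.838).

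Sgk1, the gene with the palindromic element shown above, encodes a kinase that regulates ion channels and transporters. It was at 47.5, 54.2 and 58.6 CPM in heterozygous pups 6, 7 and 11 and at 61.1, 54.7 and 57.1 CPM in null pups 2, 4 and 10. Heterozygous pup 6 was the lowest and null pup 2 the highest library. Its log2 fold change came to 0.11 (SE 0.10, edgeR adjusted p = 0.892), and the interval ran from 92.7% to 125.5% of the heterozygous level. Without heterozygous pup 6 the fold change was 0.03, without null pup 2 it was 0.07 and without heterozygous pup 11 it was 0.18.

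Ddit4 encodes REDD1, an inhibitor of the growth kinase complex mTORC1 that is also induced by low oxygen and by amino acid stress. Its levels of 84.0, 92.3 and 97.3 CPM in heterozygous pups 6, 7 and 11 compared with 106, 90.7 and 95.9 CPM in null pups 2, 4 and 10. As for Sgk1, heterozygous pup 6 was the lowest library, null pup 2 the highest and heterozygous pup 11 the second highest. Null against heterozygous, the log2 fold change was 0.10 (SE 0.09, edgeR adjusted p = 0.893), with an interval of 93.3% to 122.4% of the heterozygous level. Leaving out null pup 2 gave 0.03 and leaving out heterozygous pup 6 gave 0.04.

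Zbtb16, which encodes the zinc-finger repressor PLZF, was at 15.0, 19.8 and 17.4 CPM in heterozygous pups 6, 7 and 11 and at 19.2, 19.9 and 17.8 CPM in null pups 2, 4 and 10. Heterozygous pup 6 was again the lowest, and heterozygous pup 7 lay just below the highest null library. The log2 fold change was 0.13 (SE 0.13, edgeR adjusted p = 0.906), and the interval ran from 89.7% to 133.2% of the heterozygous level. Without heterozygous pup 6 it was 0.03, and without heterozygous pup 7 it was 0.23.

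Variation between the libraries thus crossed the genotypes. Heterozygous pup 6 was the lowest library for 5 of the 9 genes (Nr3c1, Fkbp5, Sgk1, Zbtb16 and Ddit4). In that library 10 meningeal genes summed to 234 CPM, against 374.8 to 571.5 CPM in the other 5, and the part of meningeal tissue in the 5 values was not tested. Heterozygous pup 11 and null pup 10 shared low Nr3c2 and high Fkbp5. The same libraries had low immediate-early genes, which cells transcribe within minutes of a stimulus: the 15 genes summed to 179.7 and 202.5 CPM there and to 580.5 and 1476 CPM in null pups 2 and 4, in which Nr3c2 was highest. Heterozygous pups 6 and 7, however, were also low, at 251.8 and 201.1 CPM, and heterozygous pup 7 had the third highest Nr3c2 level. The part of stimulation or handling in the Nr3c2 values was not tested. With heterozygous pup 11 and null pup 10 left out, a choice made after seeing the data, none of the 9 genes passed. The log2 fold change was then 0.23 for Nr3c2 (edgeR adjusted p = 0.715), 0.14 for Fkbp5 (0.72), 0.19 for Sgk1 (0.621) and -0.52 for Hsd11b1 (0.732).

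**Figure D3:**
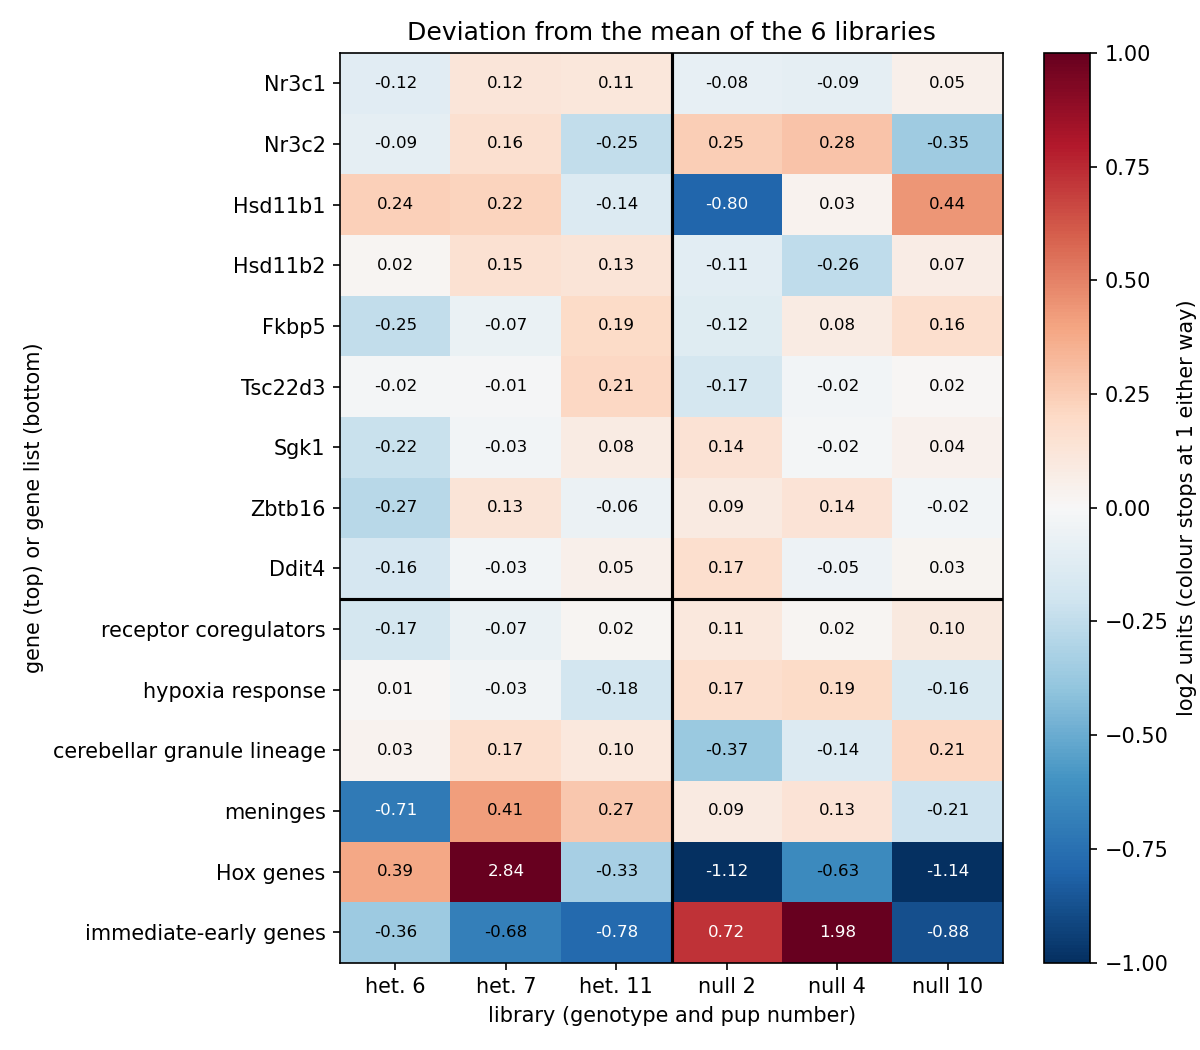
Deviation of each gene's log2 CPM (top 9 rows) and of each gene list's mean log2(CPM + 0.5) (bottom 6 rows) from its mean over the 6 libraries (columns), in log2 units, with colour from blue (lower) to red (higher). Heterozygous pup 6 is blue for Nr3c1, Fkbp5, Sgk1, Zbtb16 and Ddit4 and for the meningeal list at -0.71, and Nr3c2 is blue in heterozygous pup 11 at -0.25 and null pup 10 at -0.35.

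The genes whose log2 CPM followed each of the 9 most closely over the 6 libraries were found among the other tested genes (13142 or 13143 of them) with a mean of at least 50 counts, by Pearson correlation. Predicted-gene symbols, with Gm and a number or with Rik, were left out before this count. With so many genes and 6 libraries, values near 1 arise for any gene, and they are given as a description only. For Nr3c2 these were Tgfa (r = 0.995) and Mr1 (0.991), for Zbtb16 Nid2 (0.997) and Phactr2 (0.994), and for Fkbp5 Lig4 (0.994) and Zfp366 (0.989). For Ddit4 they were Ryr3 (0.984) and Pdgfrb (0.977), the latter a receptor of pericytes, and for Sgk1 Tor4a (0.985) and Mfsd8 (0.984). Clec2d (0.988) was among them for Tsc22d3 and Cramp1l (0.986) for Nr3c1. The pair was Xpa (0.987) and Kcnn2 (0.985) for Hsd11b1 and Zfp410 (0.994) and Mrpl37 (0.994) for Hsd11b2.

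Other genes that glucocorticoids are known to induce did not move one way. Of 40 listed, 37 were tested, 0 were called by edgeR in either direction, 19 had positive and 18 negative fold changes, and the median was 0.004 against -0.001 over all genes tested. At an unadjusted p of 0.05 edgeR had 3 higher and 1 lower, 4 of 37 against 7.06% of all genes tested. In this list, and in the lists of chaperones, coregulators, steroid genes, paralogs, hypoxia and integrated stress described next, DESeq2 and limma-voom also called 0 genes. The groups did not overlap for 3 of the 37, 2 higher and 1 lower, against 12.7% of all genes tested.

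The insulin signalling adaptor Irs2 was at 36.1, 36.6 and 39.6 CPM in heterozygous pups 6, 7 and 11 and at 53.0, 52.4 and 40.0 CPM in null pups 2, 4 and 10. Null pup 10 stood just above the highest heterozygous library, and the others well above it (log2 fold change 0.37, SE 0.12, edgeR adjusted p = 0.56). The transcription factor gene Cebpd was at 5.57, 5.69 and 8.29 CPM in the heterozygous and 10.8, 17.9 and 6.80 CPM in the null libraries (0.86, adjusted p = 0.639). Null pups 2 and 4, which were highest for Cebpd, were also the 2 libraries with high immediate-early genes, and the link between them was not tested. The repressor gene Bcl6 had a log2 fold change of 0.72 (adjusted p = 0.596). Klf15, a transcription factor gene of the early glucocorticoid response, was at 21.9, 25.4 and 21.9 CPM in the heterozygous and 15.8, 14.7 and 20.7 CPM in the null libraries, without overlap (-0.43, SE 0.14, adjusted p = 0.57). Klf9, its relative, was at -0.18 (adjusted p = 0.882), and the monoamine synthesis gene Ddc at -0.62 (adjusted p = 0.749).

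The HSP90 machinery that holds the receptor ready for hormone had 14 tested genes, 0 of them called. At an unadjusted p of 0.05 there were 0, against 7.06% of all genes tested. Fold changes were positive for 9 and negative for 5, with a median of 0.10. The median was -0.02 without null pup 4, 0.04 without heterozygous pup 11 and 0.06 without null pup 2. With library size alone it was 0.01, where the median of all genes was -0.086. The groups did not overlap for 5 of the 14, 2 higher and 3 lower, against 12.7% of all genes tested. Hsp90ab1, the constitutive HSP90 gene, was at 2119, 2155 and 2075 CPM in heterozygous pups 6, 7 and 11 and at 2255, 2308 and 2254 CPM in null pups 2, 4 and 10 (log2 fold change 0.10, edgeR adjusted p = 0.731). Its groups did not overlap, although the difference was small, and the same held for the cochaperone gene Dnajb1 (0.09). Fkbp4, the cochaperone that counterbalances Fkbp5 on the receptor, was at 0.18 (adjusted p = 0.73) and the adaptor Stip1 at 0.16 (adjusted p = 0.719). Negative values without overlap were found for the ubiquitin ligase gene Stub1 (-0.13, adjusted p = 0.816), the p23 gene Ptges3 (-0.09, adjusted p = 0.882) and the phosphatase gene Ppp5c (-0.07, adjusted p = 0.91).

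Receptor coregulators, the coactivators and corepressors recruited by DNA-bound nuclear receptors, had mostly positive fold changes, in 13 of 15 against 49.7% of all genes tested, with a median of 0.18. None passed the edgeR test (0 of 15), 5 had an unadjusted p under 0.05, all higher (4.13% of all genes tested), and 5 did not overlap between the groups with the null libraries higher, against 6.21% of all genes tested. With library size alone, where the median of all genes was -0.086, the list median was 0.09. The coactivator gene Ncoa1 was at 99.7, 107.9 and 128.4 CPM in heterozygous pups 6, 7 and 11 and at 133.4, 136.9 and 134.9 CPM in null pups 2, 4 and 10 (log2 fold change 0.27, SE 0.09, edgeR adjusted p = 0.595). The coactivator gene Ep300 (0.25, adjusted p = 0.63) was likewise without overlap. Heterozygous pup 6 was the lowest library for both. These coregulators serve many other transcription factors as well.

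Among genes of steroid metabolism, transport and the stress axis 12 of 19 were tested and 0 called, and 2 had an unadjusted p under 0.05, both lower (2.93% of all genes tested). Fold changes were negative for 11 of the 12, against 50.3% of all genes tested, with a median of -0.24. Crhbp, which encodes the binding protein of corticotropin-releasing hormone, was at 4.52, 4.78 and 3.76 CPM in heterozygous pups 6, 7 and 11 and at 1.97, 2.55 and 2.48 CPM in null pups 2, 4 and 10. The groups did not overlap, and the log2 fold change was -0.89 (SE 0.20, edgeR adjusted p = 0.368). Pomc, the precursor of the hormone ACTH, was at 3.61, 20.9 and 4.27 CPM in the heterozygous and 1.46, 2.58 and 1.73 CPM in the null libraries (-2.29, adjusted p = 0.697). The high Pomc value belonged to heterozygous pup 7, the library with the highest Hox sum. The pituitary hormone gene Gh was also highest there, at 2.53, 56.7 and 10.2 CPM in the heterozygous libraries and 0, 1.54 and 0 CPM in the null libraries. The 12 tested hypothalamic and pituitary genes, which include Pomc and Gh, summed to 113, 171.6 and 90.5 CPM in the heterozygous and 95.4, 99.6 and 91.6 CPM in the null libraries. The part of pituitary tissue in these values was not tested. Crh, the hypothalamic releasing hormone itself, was at -0.45 (adjusted p = 0.783). The steroid reductase gene Srd5a1 was at 0.0032 (adjusted p = 0.997), the single positive value. The median was -0.16 without null pup 2 and -0.36 without null pup 10.

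**Figure D4:**
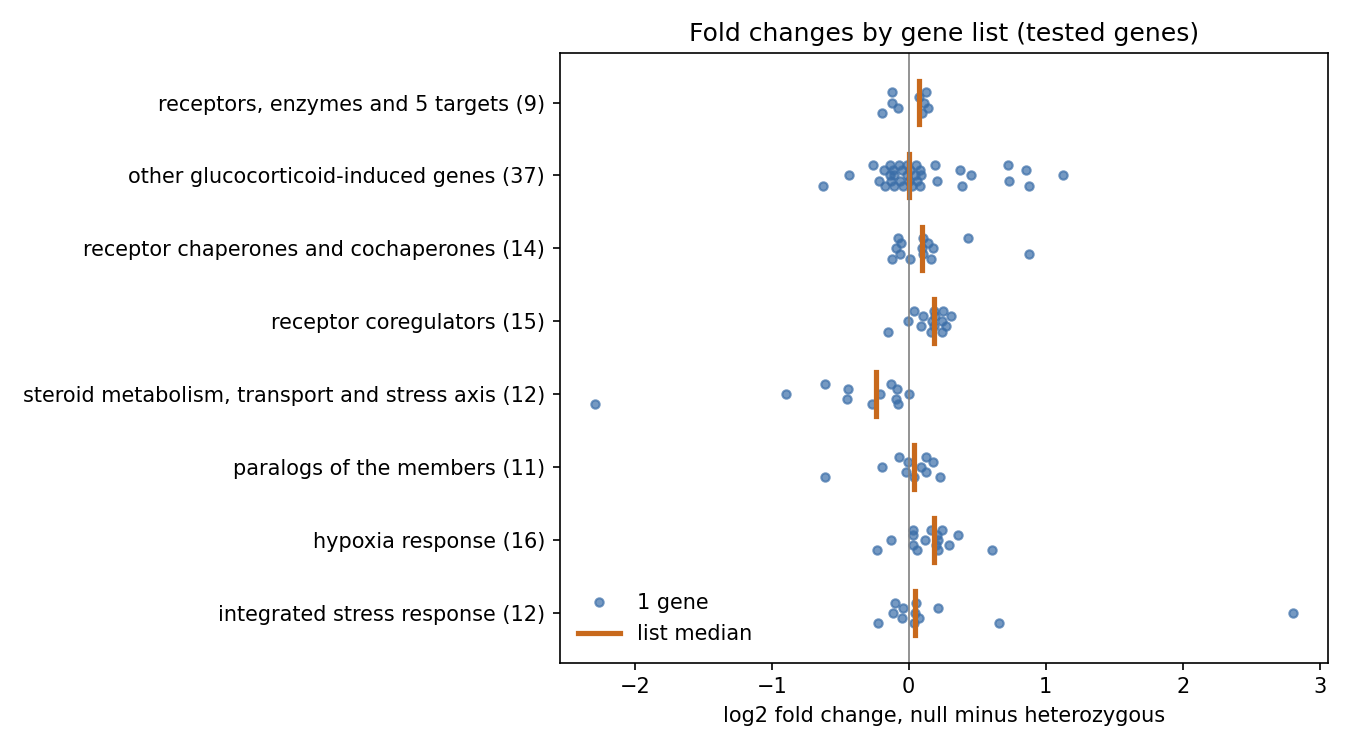
Log2 fold change, null minus heterozygous (horizontal axis), of every tested gene (blue points) in the set of 9 and in 7 further lists, with the number of tested genes in brackets and the list median in orange. The 9 genes lie between -0.19 and 0.14, and the medians of the coregulator and steroid lists lie at 0.18 and -0.24.

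Paralogs of the 9 genes had a median of 0.04, with 0 of 11 called, 6 positive and 5 negative. At an unadjusted p of 0.05 there were 0, against 7.06% of all genes tested. Without overlap between the groups, 2 were higher and 1 lower, against 6.21% and 6.47% of all genes tested. Tsc22d4, a relative of Tsc22d3, was at 46.1, 42.7 and 44.0 CPM in the heterozygous and 34.4, 41.2 and 40.4 CPM in the null libraries (log2 fold change -0.19, edgeR adjusted p = 0.765), and Tsc22d1 was at 0.09 (adjusted p = 0.841). Ddit4l, the paralog of Ddit4, was at 0.23 (adjusted p = 0.882), Fkbp8 at -0.07 and Hsd17b12 at -0.02.

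Pathways that share Ddit4 as a target were also examined. Of 16 hypoxia response genes 14 were positive (49.7% of all genes tested were). The list median, in log2 units, was 0.18, and 0 were called. With the null libraries higher, 1 of the 16 had an unadjusted p under 0.05 by edgeR, against 4.13% of all genes tested. The summed level of the 16 genes was 972.1, 962.3 and 795.3 CPM in heterozygous pups 6, 7 and 11. In null pups 2, 4 and 10 it was 1059, 1076 and 831.8 CPM. The high libraries, null pups 2 and 4, were those with high immediate-early genes, while null pup 10 lay below heterozygous pups 6 and 7. The median was 0.08 without null pup 2, 0.12 without null pup 4 and 0.09 without heterozygous pup 11. With library size alone it was 0.09, where the median of all genes was -0.086. The glycolytic regulator Pfkfb3 was at 70.8, 75.9 and 83.7 CPM in heterozygous pups 6, 7 and 11 and at 94.5, 96.6 and 91.8 CPM in null pups 2, 4 and 10 (0.30, SE 0.08, edgeR adjusted p = 0.515). The glucose transporter gene Slc2a1 was at 0.21 (adjusted p = 0.771), the demethylase gene Kdm3a at 0.21 (adjusted p = 0.808) and the mitophagy gene Bnip3 at -0.13 (adjusted p = 0.926). Of 12 genes of the integrated stress response 7 were positive and 5 negative, with a median of 0.04 and 0 called. An unadjusted p under 0.05 was found for 0 of the 12, against 7.06% of all genes tested. Atf4, its central transcription factor, was at 0.22 (adjusted p = 0.728), Ppp1r15a at 0.66 (adjusted p = 0.731) and Atf3, which is also an immediate-early gene, at 2.80 (adjusted p = 0.767). Null pup 4, with the highest immediate-early sum, had 15.6 CPM of Atf3, against 0.510 to 3.51 CPM in the other 5 libraries. Ddit4 in that library, at 90.7 CPM, was the lowest of the 3 null values. The serine synthesis gene Phgdh was at -0.10, Chac1 at -0.23 and Sesn2 at -0.11.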

How the data were processed

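The authors deposited whole-number read counts per gene symbol and a gene length in bases. Per the labels' protocols, TRIzol was used for RNA extraction and a low-input kit for stranded total RNA for the libraries, but the molecule field and the design text name poly(A) RNA. This conflict was not settled, and RNA without a poly(A) tail depends on it. The submitters' processing notes list mm9 and hg19 as builds and, without versions, STAR, CASAVA, Picard, cutadapt, MACS2 and bedtools. How reads were counted, on which strand and with which annotation is not given in the sources used here.

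Genes were kept by filterByExpr of edgeR 4.0.16 (R 4.3.3) and tested over all 6 libraries after TMM scaling with robust dispersion; p-values were adjusted over the 15925 genes by the Benjamini-Hochberg method, with a threshold of 0.05. Each standard error is the log2 fold change over the root of its F statistic, and intervals are 95%. Every pair of libraries differed by more than sampling noise (smallest chi-square per gene 11.2). The labels do not say that pups of a group came from separate litters, so p-values measure the spread between these samples. In simulated counts for this comparison over 15808 genes, the test recovered 50 of 100 altered 1.5-fold and 75 of 100 altered 2-fold. It made 11 false calls. An adjusted p under the threshold is easier to reach when many genes are altered, as in these simulated counts. The main test called 1 gene of 15925, so the recovered shares may overstate its power and do not give it for the genes examined here.

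The 9 genes, the 20 lists and the alternatives were chosen with earlier results of these data known. Named from each pathway list were genes called, and otherwise up to 3 in each direction with the smallest p and at least 50 counts on average; some genes that these rules select are not reported here. Further lists (endothelium and pericytes, astrocytes, oligodendrocyte lineage, microglia, choroid plexus, hypothalamus and pituitary, erythroid cells) were scored for context. Their median log2 fold changes were 0.02, -0.17, -0.15, -0.02, 0.14, -0.14 and -0.49, with 0 genes called by edgeR. All 11 astrocyte genes had negative fold changes. An unadjusted p under 0.05 was found for 5 of 11 astrocyte, 3 of 12 oligodendrocyte and 3 of 12 hypothalamic and pituitary genes. All of these were lower, against 2.93% of all genes tested. It was found for 1 of 15 endothelial genes, higher (4.13% of all genes tested), and for 0 microglial, choroid plexus and erythroid genes. The medians were 1.26 for the immediate-early, -3.37 for the Hox, -0.22 for the cerebellar, -0.07 for the meningeal and 0.02 for the neuronal list. Here too edgeR called 0 genes. At an unadjusted p of 0.05 it had 5 of 8 Hox genes, all lower, against 2.93% of all genes tested. It had 3 of 15 immediate-early and 3 of 13 neuronal genes, all higher, against 4.13%. Of 12 cerebellar genes 2 were higher and 1 lower, and of 10 meningeal genes there were 0. DESeq2 called Fosl2 and Nr4a3 (higher), Meis1 (lower) and Neurod6 (higher) among these lists. Over all 15925 genes it called 47 higher and 10 lower. Single libraries moved these medians: the immediate-early one was 0.65 without null pup 4, the Hox one -1.75 without heterozygous pup 7, and the cerebellar one -0.11 without null pup 2 and -0.14 without heterozygous pup 7. With 1 library left out in turn, the meningeal median ranged from -0.37 (without heterozygous pup 6) to 0.16 (without heterozygous pup 7), and the endothelial, microglial, choroid plexus, hypothalamic and pituitary, and neuronal medians took both signs. Alternatives used DESeq2 1.42.0 and limma 3.58.1.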

Additional observations from a re-analysis of the deposited data

How the results depend on the processing

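Of the 9 genes, 0 passed under any of the 18 alternatives, and 0 reached an unadjusted p of 0.05 in any of them. The CPM minimum removed Hsd11b1 before testing, and the DESeq2 Wald test gave no adjusted p for Nr3c2, Hsd11b1 and Hsd11b2. Nr3c1, Hsd11b2 and Tsc22d3 kept negative and Nr3c2, Sgk1, Zbtb16 and Ddit4 positive fold changes throughout. Fkbp5 changed sign with library size alone (-0.004), where the median of all genes was -0.086. It also did so with mean Hox expression as a covariate (-0.002), as did Hsd11b1 (0.027). Mean Hox expression separated the genotypes, so this covariate also takes up genotype differences. Leaving out 1 library at a time gave -0.021 to 0.20 for Fkbp5 and -0.408 to 0.132 for Hsd11b1. The count of all genes called lower, 1 in the main test, was 0 with DESeq2 size factors, structural RNAs removed, the CPM minimum, limma-voom, dispersion without robust estimation, the Hox covariate and with pups 10 and 11 left out, 2 with upper-quartile factors, library size alone and no low-count filter, and 10 with the DESeq2 Wald test and the Y-linked covariate. The count called higher, 0 in the main test, was 1 with no low-count filter and 47 with the DESeq2 Wald test. Without single libraries these counts ranged from 0 to 1 lower and 0 to 3 higher. The median of the other glucocorticoid-induced genes lay between -0.076 and 0.112 over all alternatives. The lowest value came with library size alone, where the median of all genes was -0.086. The cause of these shifts was not tested. No paired analysis was possible because the groups share no pup numbers. Depth limits Hsd11b1 and Hsd11b2, with 11 to 57 counts a library.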
